A study of Mus musculus with 6 samples.

Results

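The guanylate-binding proteins described here are 6 mouse genes, Gbp2, Gbp3, Gbp5, Gbp6, Gbp7 and Gbp9, found by symbol among 50383 gene IDs in the deposited tables, which hold 12 Gbp symbols. The tissue was the lateral amygdala, where fear memories are formed and kept, of male 129xC57BL/6 hybrid mice aged 2-3 months. Messenger RNA was sequenced in 2 libraries labelled Baf53b siRNA, 2 labelled scrambled siRNA and 2 labelled control. BAF53b is a neuronal subunit of a chromatin remodelling complex, encoded by Actl6b, and the small interfering RNA (siRNA) against it was injected 1 day after training, according to the series' design. The labels say neither what control mice received nor whether the 4 mice that the extract protocol mentions were pooled, so p-values measure only the spread between these libraries, which may be technical. The 6 genes were chosen by their FPKM in these same libraries, with the levels of all 3 groups known. Their levels, differences and calls are therefore given as a description without a test.

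Guanylate-binding proteins are large GTPases that interferons, above all interferon gamma, induce in many cell types. They assemble as coats on the vacuoles and the surfaces of intracellular pathogens, work together with the smaller immunity-related GTPases, and help to open the way to inflammasomes. In the healthy brain they are known for low levels, with microglia, astrocytes and endothelial cells as cells that can express them. In bulk tissue, more cells of a type and more RNA per cell cannot be told apart.

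Levels are in FPKM, which scales fragments to the length of the transcript and the size of the library, so different genes can be set side by side. From the deposited intervals, 6.43 M to 10.7 M fragments lay behind a library (counting error only). The targeted gene Actl6b had 42.8 and 39.6 FPKM under the Baf53b siRNA label, 43.8 and 43.9 FPKM under the scrambled one and 42.9 and 44.1 FPKM in control. Against scrambled siRNA it differed by -0.09 in log2 (SE 0.12, limma adjusted p = 1), so a fall of its transcript was not detectable, and Baf53b siRNA below names the libraries by their label. Excitatory neuron markers of the lateral and basal amygdala, such as Slc17a7 and Camk2a, were detected in every library and summed to 1663 to 2107 FPKM.

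All 6 genes stood higher in both Baf53b siRNA libraries than in any of the other 4, and these values chose them. Of all genes tested, 13.1% had both Baf53b siRNA libraries above both scrambled siRNA libraries and 16.7% above both control libraries. Together the 6 genes summed to 21.4 and 20.3 FPKM in Baf53b siRNA, 5.75 and 6.33 FPKM in scrambled siRNA, against 3.33 and 4.15 FPKM in control. That sum averaged 20.9 ± 0.820 FPKM in Baf53b siRNA, 6.04 ± 0.410 FPKM in scrambled siRNA and 3.74 ± 0.580 FPKM in control (SD, n = 2 each). The mean sum was 3.45 times as high in Baf53b siRNA as in scrambled siRNA and 1.62 times as high in scrambled siRNA as in control. The genes lie in 2 genomic clusters.

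**Figure D1:**
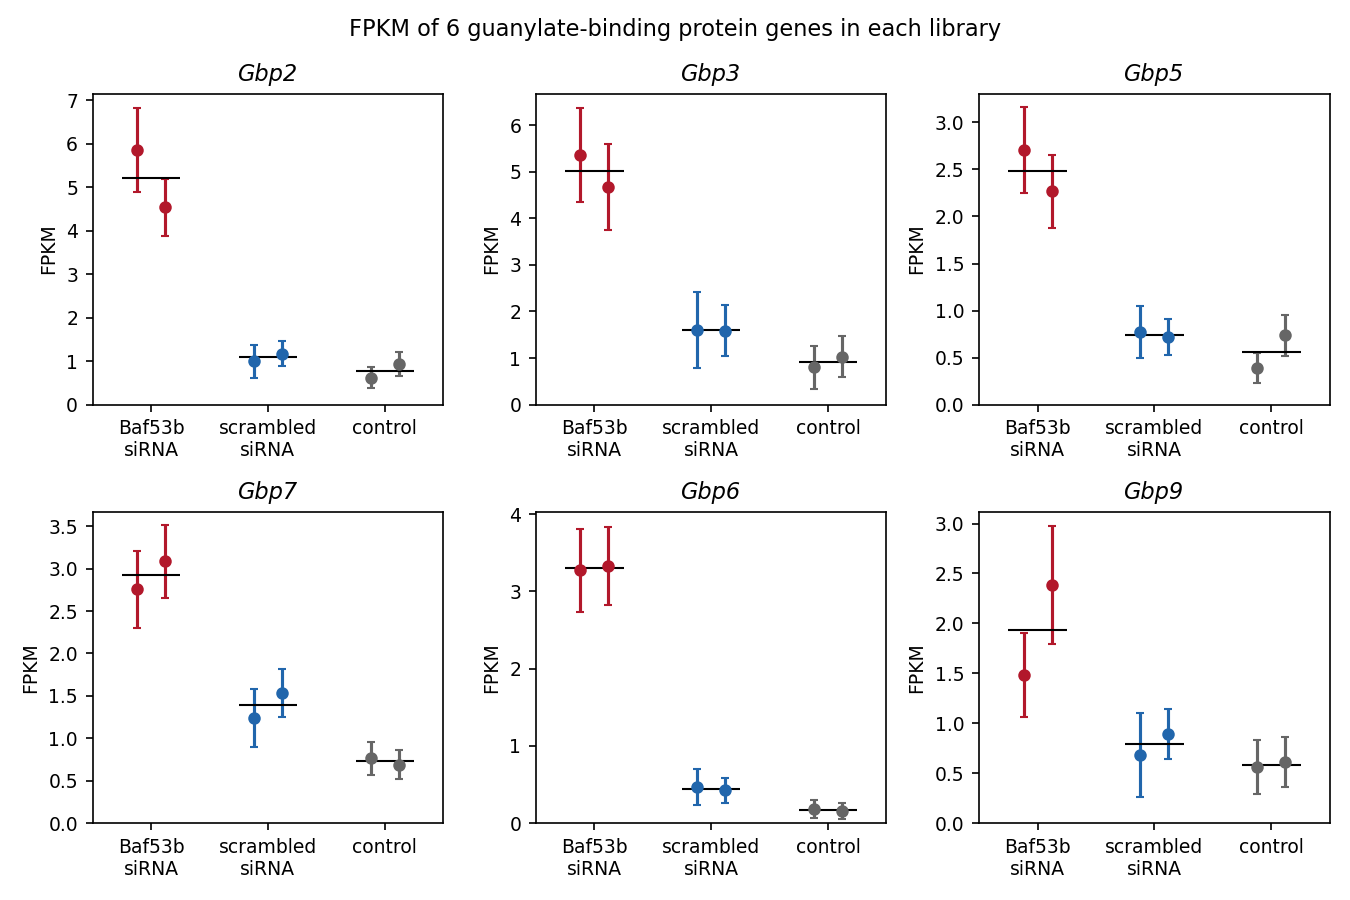
FPKM of each gene (y axis, from 0, one scale per panel) in the 6 libraries by group (x axis). Points are libraries, thin bars the authors' deposited interval on the FPKM, and black lines group means. In every panel both Baf53b siRNA points lie above the other 4, as for Gbp6 with 3.27 and 3.33 FPKM against at most 0.465 FPKM elsewhere. The genes were chosen by these values.

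Gbp2, Gbp3, Gbp5 and Gbp7 lie in a cluster on the plus strand of mouse chromosome 3 (build mm10), between the start of Gbp5 at 142493978 and the end of Gbp2 at 142638008. Gbp2 (ENSMUSG00000028270.12, 142620602 to 142638008), a member with a prenylated tail that coats Toxoplasma vacuoles in mouse cells, had 5.87 and 4.54 FPKM in Baf53b siRNA, 0.995 and 1.18 FPKM in scrambled siRNA, against 0.623 and 0.931 FPKM in control. It was the highest of the 6 in Baf53b siRNA replicate 1, and its scrambled siRNA and control libraries did not overlap. Its mean was 4.80 times as high in Baf53b siRNA as in scrambled siRNA, a difference of 1.57 on the log2(FPKM + 1) scale (SE 0.19), and 1.4 times as high in scrambled siRNA as in control (0.24, SE 0.19). This scale understates changes of genes near or under 1 FPKM. SE here and below is the standard error of a limma fit over all genes.

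Gbp3 (ENSMUSG00000028268.14, 142560026 to 142573209), which is recruited to the same vacuoles in mouse cells, had 5.36 and 4.68 FPKM in Baf53b siRNA, 1.60 and 1.59 FPKM in scrambled siRNA, against 0.804 and 1.03 FPKM in control. The 3 groups were apart from each other, and the Baf53b siRNA libraries stood 3.15 times as high as scrambled siRNA by their means (log2 difference 1.21, SE 0.16). Scrambled siRNA stood 1.74 times as high as control (0.44, SE 0.16). Gbp5 (ENSMUSG00000105504.4, 142493978 to 142522344), a prenylated member tied in mouse macrophages to inflammasome activation, had 2.70 and 2.27 FPKM in Baf53b siRNA, 0.771 and 0.717 FPKM in scrambled siRNA, against 0.389 and 0.738 FPKM in control. It was the 1 gene of the 6 whose scrambled siRNA and control libraries overlapped, because control replicate 2 lay between the scrambled siRNA values. Its mean in Baf53b siRNA was 3.34 times that in scrambled siRNA (1.00, SE 0.19), and in scrambled siRNA 1.32 times that in control (0.17, SE 0.19); without control replicate 2 that second log2 difference is 0.33, and without control replicate 1 it is 0.0048.

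Gbp7 (ENSMUSG00000040253.15, 142530342 to 142550149), reported in mouse macrophages to help assemble the phagocyte NADPH oxidase, had 2.76 and 3.08 FPKM in Baf53b siRNA, 1.24 and 1.53 FPKM in scrambled siRNA, against 0.767 and 0.689 FPKM in control. Its groups were apart and its 2 ratios were close to each other, at 2.1 for Baf53b siRNA over scrambled siRNA (log2 difference 0.72, SE 0.16) and 1.91 for scrambled siRNA over control (0.46, SE 0.16).

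The start sites of these genes are shown because interferon-activated factors are known to bind Gbp promoters, and 4 of the 6 members matched the RefSeq promoter table of build GRCm38.p6, whose windows hold 250 bases before and 50 after an annotated start. Each is written 5′ to 3′ with matches to the core of the interferon-stimulated response element (GAAA, then NN, then GAAA) and to the gamma-activated site, TTCNNNGAA, in capitals, both searched on both strands. For Gbp3, which has 2 annotated starts in the table, the upstream one is shown.
Gbp5, chr3:142496684-142496983, plus strand: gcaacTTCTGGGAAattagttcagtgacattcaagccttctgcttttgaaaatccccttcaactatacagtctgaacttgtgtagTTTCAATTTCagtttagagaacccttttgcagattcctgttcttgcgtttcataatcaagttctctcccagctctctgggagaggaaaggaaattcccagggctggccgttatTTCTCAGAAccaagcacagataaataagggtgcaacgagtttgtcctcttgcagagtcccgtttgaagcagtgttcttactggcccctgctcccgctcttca
Gbp7, chr3:142530086-142530385, plus strand: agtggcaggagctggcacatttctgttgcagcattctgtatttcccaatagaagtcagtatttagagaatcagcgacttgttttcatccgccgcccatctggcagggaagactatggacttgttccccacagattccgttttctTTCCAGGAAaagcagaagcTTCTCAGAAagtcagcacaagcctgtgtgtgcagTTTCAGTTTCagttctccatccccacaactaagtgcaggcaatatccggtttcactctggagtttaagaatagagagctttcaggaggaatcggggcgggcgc
Gbp3, chr3:142559794-142560093, plus strand: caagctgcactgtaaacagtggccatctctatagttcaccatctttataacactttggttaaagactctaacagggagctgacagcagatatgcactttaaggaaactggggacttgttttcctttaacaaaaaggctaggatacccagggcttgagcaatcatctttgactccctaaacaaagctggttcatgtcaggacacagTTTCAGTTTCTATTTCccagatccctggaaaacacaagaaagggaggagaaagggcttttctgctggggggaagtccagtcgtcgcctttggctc
Gbp2, chr3:142620413-142620712, plus strand: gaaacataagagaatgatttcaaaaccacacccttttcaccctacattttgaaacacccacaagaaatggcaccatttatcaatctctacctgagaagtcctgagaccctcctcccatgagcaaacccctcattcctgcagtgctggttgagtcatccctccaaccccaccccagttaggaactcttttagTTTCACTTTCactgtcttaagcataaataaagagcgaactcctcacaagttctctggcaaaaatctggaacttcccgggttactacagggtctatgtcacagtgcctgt
All 4 windows held the response element core, in each case on the strand opposite to the gene. The match TTTCACTTTC of Gbp2 spanned positions -59 to -50 from the start, TTTCAGTTTC of Gbp7 -53 to -44, and TTTCAATTTC of Gbp5 -165 to -156. Gbp3 held 2 matches that overlap each other, TTTCAGTTTC and TTTCTATTTC, while the window of its downstream start held neither motif. Gbp5 and Gbp7 each held 2 gamma-activated site matches, among them TTCTCAGAA in both, and Gbp2 and Gbp3 held none. The 2 motifs did not overlap in any window. Of 32851 RefSeq promoter windows of this length, 3.44% held the response element core, 8.30% the gamma-activated site and 0.454% both. A match is a description of the letters and shows no binding in these samples.

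Gbp6 and Gbp9 lie on the minus strand of chromosome 5. Gbp6 (ENSMUSG00000104713.4, 105270702 to 105293698), another member recruited to Toxoplasma vacuoles, had 3.27 and 3.33 FPKM in Baf53b siRNA, 0.465 and 0.427 FPKM in scrambled siRNA, against 0.187 and 0.154 FPKM in control. It had the lowest level of the 6 in all 4 libraries without Baf53b siRNA and the third highest in both with it, with little spread within groups. Its mean was 7.40 times as high in Baf53b siRNA as in scrambled siRNA (log2 difference 1.57, SE 0.16) and 2.62 times as high in scrambled siRNA as in control (0.31, SE 0.16), the widest ratios of the 6 in both steps. The intervals implied 149 and 172 fragments behind Gbp6 in Baf53b siRNA, 16.3 and 28.0 in scrambled siRNA and 10.2 and 8.76 in control, so the ratio of scrambled siRNA to control rests on few fragments.

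Gbp9 (ENSMUSG00000029298.15, 105077630 to 105139539), also recruited to these vacuoles, had 1.48 and 2.39 FPKM in Baf53b siRNA, 0.684 and 0.893 FPKM in scrambled siRNA, against 0.562 and 0.612 FPKM in control. All 4 other libraries stood below both Baf53b siRNA libraries, of which replicate 2 was the higher; Gbp2, Gbp3 and Gbp5 were higher in replicate 1. Its ratios were 2.45 for Baf53b siRNA over scrambled siRNA (log2 difference 0.70, SE 0.20) and 1.34 for scrambled siRNA over control (0.17, SE 0.20).

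The order of the levels differed between the groups. In Baf53b siRNA it ran from Gbp2 (5.21 ± 0.940 FPKM) and Gbp3 (5.02 ± 0.483) over Gbp6 (3.30 ± 0.0398), Gbp7 (2.92 ± 0.232) and Gbp5 (2.49 ± 0.307) to Gbp9 (1.93 ± 0.637; SD, n = 2 each). Gbp2 overlapped Gbp3 and Gbp5 overlapped Gbp9, while the other neighbours in this order did not overlap across the libraries. In scrambled siRNA the order was Gbp3 (1.59 ± 0.00711 FPKM), Gbp7 (1.39 ± 0.207), Gbp2 (1.09 ± 0.128), Gbp9 (0.789 ± 0.148), Gbp5 (0.744 ± 0.0385) and Gbp6 (0.446 ± 0.0268), with Gbp9 and Gbp5 overlapping. In control it was Gbp3 (0.915 ± 0.157), Gbp2 (0.777 ± 0.218), Gbp7 (0.728 ± 0.0548), Gbp9 (0.587 ± 0.0352), Gbp5 (0.563 ± 0.247) and Gbp6 (0.171 ± 0.0226), where Gbp3 overlapped Gbp2, Gbp2 overlapped Gbp7, and Gbp9 overlapped Gbp5. As shares of the summed level, Gbp6 made up 15.3% and 16.4% in Baf53b siRNA, 8.08% and 6.74% in scrambled siRNA and 5.6% and 3.72% in control. Gbp7 made up 12.9% and 15.2% in Baf53b siRNA, 21.6% and 24.2% in scrambled siRNA and 23.0% and 16.6% in control. Gbp3 kept close to the same share throughout, between 23.1% and 27.8%.

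The design allows the rise to be split into a step from control to scrambled siRNA and a step from scrambled siRNA to Baf53b siRNA, which share the scrambled siRNA libraries. For Gbp2, Gbp5 and Gbp6 the second step held 86.9%, 85.7% and 83.8% of the log2 difference between Baf53b siRNA and control, for Gbp9 80.4% and for Gbp3 73.4%. For Gbp7 the shares were closest, 60.6% in the second step and 39.4% in the first. These shares depend on the pseudocount: with 0.1 in place of 1, the second step held 72.2% for Gbp6, below the 76.3% for Gbp9, and the first-step share of Gbp6 was 27.8% against 16.2%. The second step exceeded the first by 1.33 (SE 0.33) for Gbp2, 1.27 (SE 0.28) for Gbp6, 0.83 (SE 0.32) for Gbp5, 0.77 (SE 0.28) for Gbp3, 0.53 (SE 0.35) for Gbp9 and 0.25 (SE 0.29) for Gbp7. On the linear scale, 30.1% of the FPKM gain of Gbp7 between control and Baf53b siRNA fell in the first step, against 6.97% to 16.5% for the other 5.

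**Figure D2:**
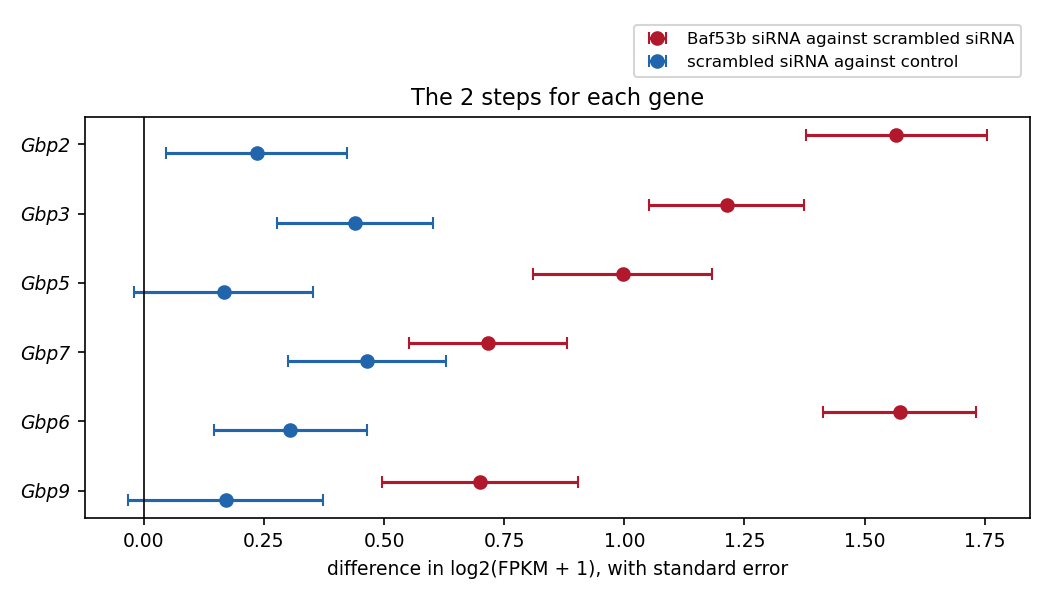
Difference in log2(FPKM + 1) (x axis) for each gene (rows) in the step from scrambled siRNA to Baf53b siRNA (red) and the step from control to scrambled siRNA (blue); points are fitted differences and bars their standard errors. The 2 points of Gbp7 are the closest, at 0.72 and 0.46.

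Across all genes, limma with Benjamini-Hochberg adjustment at 0.05 called 18 of 14664 tested genes higher in Baf53b siRNA than in scrambled siRNA (0.123%), and Gbp6 was the 1 member among them. Both Baf53b siRNA libraries lay above both scrambled siRNA libraries for 6 of 6 members and for 13.1% of all genes tested. Between scrambled siRNA and control, limma called 0 genes (298 higher and 27 lower at an unadjusted p under 0.05) and 0 members (0%). There, 5 of 6 members had both scrambled siRNA libraries above both control libraries, as did 12.7% of all genes tested. Against control, 181 genes were called higher in Baf53b siRNA (1.23%), among them every member but Gbp9, and all 6 had no overlap (16.7% of all genes tested). The median log2 difference of the members was 1.10 against scrambled siRNA, 0.27 for scrambled siRNA against control and 1.42 for Baf53b siRNA against control, while that of all genes tested was 0.0026, 0.041 and 0.038. These values chose the members, so nothing is read from the counts. The call of Gbp6 was absent with any 1 library left out, and the 5 calls against control fell to 3 without control replicate 1, control replicate 2 or Baf53b siRNA replicate 2 and to 1 without Baf53b siRNA replicate 1. All 6 passed the filter of a mean of at least 1 FPKM over the 6 libraries, but Gbp2, Gbp5, Gbp6 and Gbp9 averaged 0.931, 0.654, 0.308 and 0.688 FPKM in the 4 libraries without Baf53b siRNA and passed through the group in which they were high.

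The 6 members were also the 6 Gbp genes with a mean of at least 1 FPKM; the lowest of them, Gbp9, averaged 1.10 FPKM and the highest outside them, Gbp4, averaged 0.704 FPKM. The other family members were not tested at that filter. Gbp2b, the neighbour of Gbp2 on chromosome 3 (142594847 to 142619179), had 1.48 and 1.51 FPKM in Baf53b siRNA, 0.261 and 0.286 FPKM in scrambled siRNA, against 0.126 and 0.224 FPKM in control. Its groups were apart, and without a filter on low values limma gave a log2 difference of 0.97 against scrambled siRNA (adjusted p = 0.0982) and 1.09 against control (adjusted p = 0.0494). Gbp4 on chromosome 5 (105115767 to 105139586) had 1.12 and 1.36 FPKM in Baf53b siRNA, 0.697 and 0.422 FPKM in scrambled siRNA, against 0.372 and 0.255 FPKM in control, with a log2 difference of 0.53 against scrambled siRNA (limma adjusted p = 0.615 without a filter) and 0.77 against control (adjusted p = 0.177). Gbp8 (105014150 to 105139540) had 0.347 and 0.382 FPKM in Baf53b siRNA and at most 0.0673 FPKM elsewhere (log2 difference 0.38 against scrambled siRNA, limma adjusted p = 0.108; 0.43 against control, adjusted p = 0.0494). Gbp10 (105215699 to 105239533) had 1.37 and 0.776 FPKM in Baf53b siRNA, 0.358 and 0.0690 FPKM in scrambled siRNA, against 0.0382 and 0.0124 FPKM in control (0.77 against scrambled siRNA, limma adjusted p = 0.543; 1.00 against control, adjusted p = 0.193). Gbp11 (105323042 to 105346472), annotated as a polymorphic pseudogene, had 0.356 and 0.277 FPKM in Baf53b siRNA, 0.320 and 0.0593 FPKM in scrambled siRNA, against 0.202 and 0.157 FPKM in control, and its Baf53b siRNA and scrambled siRNA libraries overlapped (0.15 against scrambled siRNA and 0.16 against control, limma adjusted p = 1 for both). The pseudogene Gbp2-ps was listed at 0 in every library.

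Gbp genes resemble one another, and reads can be divided among copies. Of the distinct 50-base stretches of the GENCODE M21 transcripts of Gbp6, 70.7% also occur in transcripts of other genes, 65.0% in Gm43302, an annotated gene that shares exons with Gbp6 and Gbp10, and 45.9% in Gbp10. For Gbp10 the share is 84.1%. It is 12.7% for Gbp7, mostly with the exon-sharing Gm43802, 8.05% for Gbp9, 3.75% for Gbp3, 2.03% for Gbp2 and 1.44% for Gbp5. The level of Gbp6 alone is therefore uncertain in every library. Gm43302 had 1.02 and 0.677 FPKM in Baf53b siRNA, 0.0381 and 0.0992 FPKM in scrambled siRNA, against 0.0395 and 0.0404 FPKM in control. Added up, Gbp6, Gbp10 and Gm43302 had 5.66 and 4.78 FPKM in Baf53b siRNA, 0.861 and 0.595 FPKM in scrambled siRNA, against 0.264 and 0.207 FPKM in control. This sum was 7.17 times as high in Baf53b siRNA as in scrambled siRNA, against 7.40 for Gbp6 alone. Gbp9 shares 60 exon bases with Gbp4 and Gbp8, and the 3 added up to 2.95 and 4.13 FPKM in Baf53b siRNA, 1.45 and 1.35 FPKM in scrambled siRNA, against 0.944 and 0.878 FPKM in control, a ratio of 2.53 for Baf53b siRNA over scrambled siRNA.

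**Figure D3:**
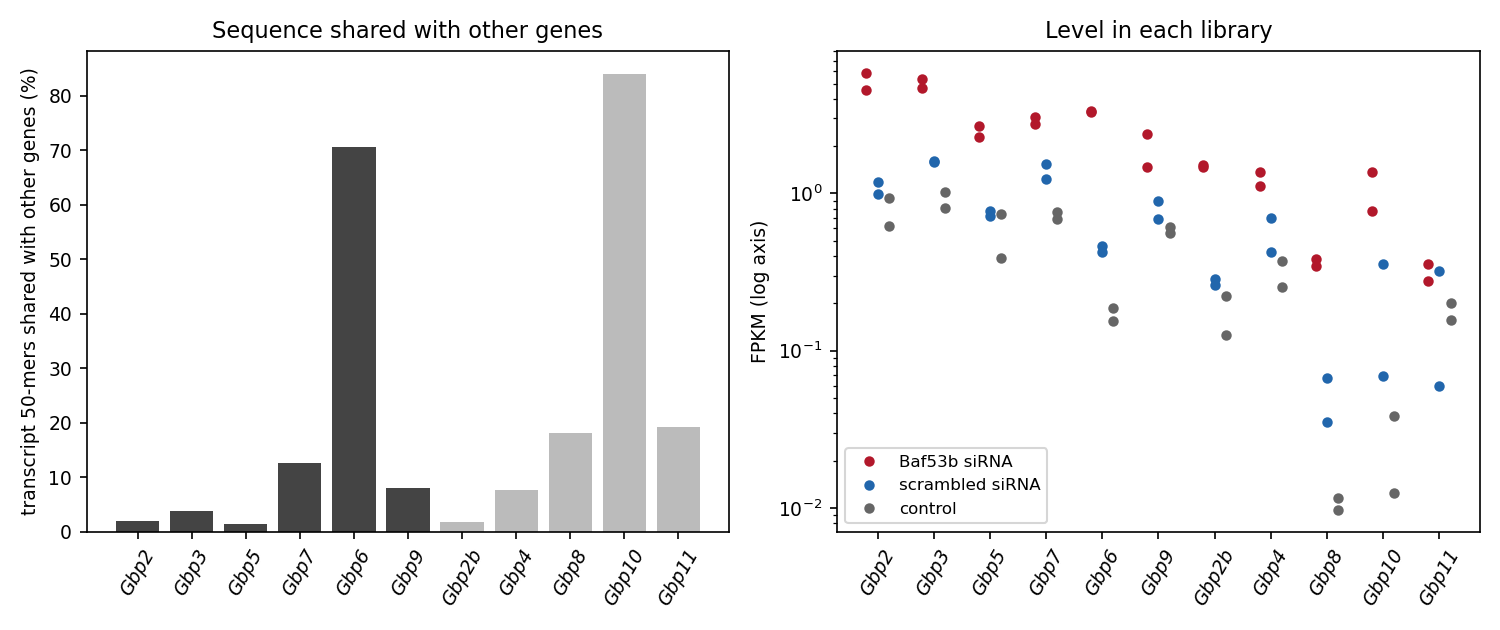
Left, share of each gene's distinct transcript 50-base stretches that also occur in other genes (bars, in percent; dark for the 6 members, light for Gbp2b, Gbp4, Gbp8, Gbp10 and Gbp11), highest for Gbp10 (84.1%) and Gbp6 (70.7%). Right, FPKM of the same genes in each library on a log axis (points coloured by group); both Baf53b siRNA points lie above the other 4 for every gene plotted but Gbp11.

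Other genes of the pathway were taken from lists that name the inducers, partners and relatives of these proteins. Among 12 interferon ligands and receptors, 6 were tested and limma called 0 in Baf53b siRNA against scrambled siRNA (2 higher at an unadjusted p under 0.05, at which 391 of all genes tested were higher and 53 lower; median log2 difference 0.21, all genes 0.0026). Of the ligands, Ifnb1, Ifna4 and Il27 were listed at 0 in all 6 libraries. Ifng, the strongest known inducer of Gbp genes, was listed at 0 in 5 libraries and at 0.0424 FPKM in Baf53b siRNA replicate 2. Il12b, a subunit of a cytokine that elicits interferon gamma, had 0.185 and 0.130 FPKM in Baf53b siRNA and was listed at 0 in the other 4. The ligand-binding receptor chain Ifngr1 had 18.2 and 15.3 FPKM in Baf53b siRNA, 11 and 12.9 FPKM in scrambled siRNA, against 9.06 and 9.61 FPKM in control (log2 difference 0.46 against scrambled siRNA, limma adjusted p = 1). Il10rb, a receptor chain of interferon lambda and interleukin 10, differed by 0.66 (limma adjusted p = 0.533), Ifnar2 by 0.38, Il18 by 0.035 and Ifnar1 by -0.012.

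Of 18 genes of interferon signalling, 17 were in the tables and 11 were tested. Against scrambled siRNA limma called 0 of them (3 higher and 0 lower at an unadjusted p under 0.05; median 0.30). Against control 3 rose and 8 did not pass, while 1.23% of all genes tested rose. Irf1, a transcription factor that acts on Gbp promoters, had 8.80 and 7.69 FPKM in Baf53b siRNA, 3.54 and 3.77 FPKM in scrambled siRNA, against 3.60 and 3.46 FPKM in control (log2 difference 1.03 against control, SE 0.15, limma adjusted p = 0.0248). Against scrambled siRNA it differed by 0.99 and did not pass (limma adjusted p = 0.106). For Irf1 scrambled siRNA and control differed by 0.040 and overlapped, and rescaling without mitochondrial genes gave -0.0085. Irf7, a factor of the type I interferon response, rose by 1.60 against control (limma adjusted p = 0.0340), while Jak2 and Stat2 differed by 0.076 and 0.43 and did not pass. Against scrambled siRNA Irf7 differed by 1.14 and did not pass (limma adjusted p = 0.362). It averaged 0.811 FPKM in scrambled siRNA and 0.307 FPKM in control, and so passed the filter through Baf53b siRNA. The call of Irf7 was lost without control replicate 1, control replicate 2, Baf53b siRNA replicate 1 or Baf53b siRNA replicate 2, and that of Irf1 without any 1 library (limma adjusted p up to 0.214 for Irf7 and 0.273 for Irf1 over the alternatives).

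The immunity-related GTPases load onto vacuoles together with Gbp proteins. Of 12 listed, 11 were in the tables and 6 were tested. In Baf53b siRNA against scrambled siRNA, 3 rose in limma and 3 did not pass (median log2 difference 1.53, all genes 0.0026), while 0.123% of all genes tested rose. Against control 5 of the 6 rose, beside 1.23% of all genes tested. Tgtp2, an effector of this family, had 5.32 and 3.68 FPKM in Baf53b siRNA, 0.477 and 0.238 FPKM in scrambled siRNA, against 0.258 and 0.152 FPKM in control (2.01 against scrambled siRNA, SE 0.21, limma adjusted p = 0.0304). Iigp1, another effector, rose by 1.76 (SE 0.17, limma adjusted p = 0.0304). Irgm1, which holds effectors inactive on host membranes, rose by 1.41 (SE 0.16, limma adjusted p = 0.0357). Tgtp2, Iigp1 and Irgm2 each averaged under 1 FPKM outside Baf53b siRNA, so they passed the filter through that group. Without a filter, or with a pseudocount of 0.1, the calls of Tgtp2, Iigp1 and Irgm1 against scrambled siRNA were lost. Igtp and Irgm2, regulators like Irgm1, differed by 1.66 and 1.12 and did not pass (limma adjusted p = 0.0731 and 0.0736); against control they rose by 2.04 and 1.42 (limma adjusted p = 0.0109 and 0.00986). The calls of Iigp1 and Irgm1 against scrambled siRNA were lost without any 1 library, and that of Tgtp2 with any but Baf53b siRNA replicate 2 left out (adjusted p up to 0.178, 0.291 and 0.208). Against control, those of Irgm1, Igtp and Irgm2 were lost without control replicate 1, control replicate 2 or Baf53b siRNA replicate 1. Of the 6 tested, Irgq, a divergent relative, had 17.5 and 14.9 FPKM in Baf53b siRNA, 18.8 and 15.8 FPKM in scrambled siRNA, against 17.8 and 15 FPKM in control.

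Of 16 inflammasome and pyroptosis genes, 15 were in the tables and 6 were tested. Against scrambled siRNA limma called 0 (3 higher and 0 lower at an unadjusted p under 0.05; median 0.50). Against control 1.23% of all genes tested rose, and 3 of these genes did: Aim2, a sensor of cytosolic DNA, by 1.24 (limma adjusted p = 0.0453), the adaptor Pycard by 1.13 (0.0401) and the pore former Gsdmd by 0.97 (0.0479). All 3 calls were lost with any 1 library left out. Casp1 and Il1a differed by 0.83 and 0.63 against control and did not pass. By steps, Aim2, Pycard and Gsdmd differed by 0.66, 0.95 and 0.68 between Baf53b siRNA and scrambled siRNA. Between scrambled siRNA and control they differed by 0.58, 0.18 and 0.29. Casp1 and Il1a differed less in the step to Baf53b siRNA (0.33 and 0.24) than in the step from control to scrambled siRNA (0.50 and 0.39). Of 16 genes that mark or tag vacuoles for Gbp recruitment, 15 were tested, and limma called 0 in each of the 3 comparisons (2 higher and 0 lower at an unadjusted p under 0.05 against scrambled siRNA; median -0.0070, all genes 0.0026). The galectin Lgals3 had 2.24 and 4.93 FPKM in Baf53b siRNA, 1.64 and 1.35 FPKM in scrambled siRNA, against 1.60 and 1.57 FPKM in control, Trim21 differed by 0.43, Lgals8 by 0.17, Map1lc3a by -0.18 and Atg7 by -0.16. Of the 8 enzymes that attach or process the lipid tail that some Gbp proteins carry, limma called 0 in any comparison (0 at an unadjusted p under 0.05; median -0.0097 against scrambled siRNA), with Icmt at -0.18, Rabggta at -0.14, Rce1 at 0.10, Zmpste24 at 0.067 and Pggt1b at 0.053. Of 16 related GTPases of the dynamin superfamily, 13 were tested and limma called 0 in any comparison (0 at an unadjusted p under 0.05 against scrambled siRNA; median -0.017). Among them Ehd4 differed by 0.25, Atl3 by 0.25, Dnm2 by 0.21, Mfn1 by -0.20 and Dnm1, the dynamin of synaptic vesicle recycling, by -0.13. The 3 below the filter were Ehd2 and the interferon-induced antiviral genes Mx1 and Mx2, named here after their values were seen. Mx1 had 0.540 and 0.338 FPKM in Baf53b siRNA and at most 0.126 FPKM elsewhere, and Mx2 had 0.782 and 1.07 FPKM in Baf53b siRNA and at most 0.477 FPKM elsewhere.

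**Figure D4:**
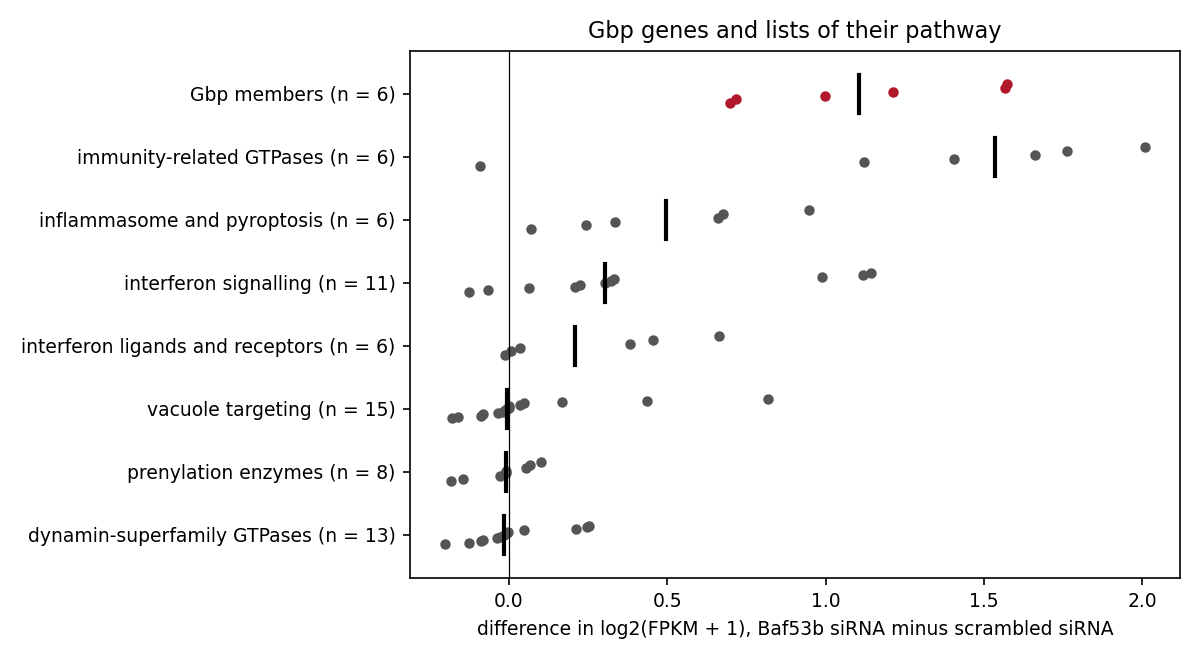
Difference in log2(FPKM + 1) between Baf53b siRNA and scrambled siRNA (x axis) for the 6 members (red) and the tested genes of each pathway list (grey points; rows are lists, with the number tested, so that Mx1 and Mx2 are not drawn); black bars are medians. The members lie between 0.70 and 1.57, 5 of 6 immunity-related GTPases between 1.12 and 2.01, and the medians of the vacuole, prenylation and dynamin lists near 0. Among these GTPases, Tgtp2, Iigp1 and Irgm2 passed the filter through Baf53b siRNA, as did Gbp2, Gbp5, Gbp6 and Gbp9 among the members.

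In Baf53b siRNA, limma called 0.123% of all genes tested higher against scrambled siRNA and 1.23% against control. Between scrambled siRNA and control it called 0%. These shares belong beside every marker list in this paragraph. The 12 microglia markers were all detected in every library, and limma called 0 of them in Baf53b siRNA against scrambled siRNA (7 higher at an unadjusted p under 0.05; median log2 difference 0.48), 0 in scrambled siRNA against control (9 higher unadjusted; median 0.61) and 7 in Baf53b siRNA against control. Their summed level was 832 and 665 FPKM in Baf53b siRNA, 481 and 476 FPKM in scrambled siRNA, against 298 and 285 FPKM in control. In means, this sum was 1.56 times as high in Baf53b siRNA as in scrambled siRNA and 1.64 times as high in scrambled siRNA as in control, where the summed Gbp level was 3.45 and 1.62 times as high. The markers did not rise alike. Of this sum, C1qa, C1qb and C1qc averaged 146, 118 and 103 FPKM in Baf53b siRNA, 74.1, 64.2 and 58.8 FPKM in scrambled siRNA, against 34.1, 30.4 and 27.1 FPKM in control. P2ry12 averaged 59.5 FPKM in Baf53b siRNA, 53.5 FPKM in scrambled siRNA and 46.6 FPKM in control. As a percentage of the microglia marker sum, the Gbp sum stood at 2.58% and 3.05% in Baf53b siRNA, 1.20% and 1.33% in scrambled siRNA and 1.12% and 1.45% in control. The scrambled siRNA values lay between the control values, and the Baf53b siRNA values lay above all 4. The Gbp sum in these percentages holds the values that chose the genes, so nothing is read from this order. The 12 T and NK cell markers summed to 13.4 and 6.43 FPKM in Baf53b siRNA, 2.65 and 1.57 FPKM in scrambled siRNA, against 1.61 and 0.752 FPKM in control. Cd3d, Cd3e and Cd3g were listed at 0 in both control libraries. Trac had 6.69 and 2.29 FPKM in Baf53b siRNA, 0.799 and 0.674 FPKM in scrambled siRNA, against 1.29 and 0.661 FPKM in control. It was the 1 marker tested, passed the filter through Baf53b siRNA, and limma called 0 in any comparison (1 higher against scrambled siRNA at an unadjusted p under 0.05). The 10 monocyte and macrophage markers summed to 32.8 and 29.4 FPKM in Baf53b siRNA, 13.7 and 10.4 FPKM in scrambled siRNA, against 7.11 and 5.70 FPKM in control. Of these sums S100a4 alone held 20.8 and 14.7, 7.31 and 5.15, and 3.37 and 2.48 FPKM. Lyve1 averaged 0.156 FPKM in Baf53b siRNA, below the 0.215 FPKM in control. Of the 3 tested, limma called 0 against scrambled siRNA (2 higher at an unadjusted p under 0.05) and 2 against control, S100a4 and Plac8. Plac8 passed the filter through Baf53b siRNA. The 7 neutrophil markers, of which Ly6g was listed at 0 throughout, summed to 7.79 and 12.5 FPKM in Baf53b siRNA, 5.38 and 6.40 FPKM in scrambled siRNA, against 2.51 and 2.30 FPKM in control. Of these markers 2 were tested, and limma called 0 against scrambled siRNA (1 higher at an unadjusted p under 0.05) and 1 against control, Csf3r (adjusted p = 0.00994, lost without either control or either Baf53b siRNA library). Csf3r had 5.71 and 4.87 FPKM in Baf53b siRNA, 3.70 and 3.65 FPKM in scrambled siRNA, against 1.37 and 1.41 FPKM in control, and Retnlg had 0.247 and 5.90 FPKM in Baf53b siRNA and at most 0.0993 FPKM elsewhere. Mmp9 and Cxcr2 averaged 0.311 and 0.227 FPKM in Baf53b siRNA, 0.465 and 0.290 FPKM in scrambled siRNA, against 0.473 and 0.354 FPKM in control, and the means of S100a8 and S100a9 were not above those in scrambled siRNA. The 8 endothelial markers summed to 73.4 and 88.0 FPKM in Baf53b siRNA, 73.1 and 71.0 FPKM in scrambled siRNA, against 64.7 and 55.0 FPKM in control, and the 8 astrocyte markers to 1076 and 1078 FPKM in Baf53b siRNA, 954 and 895 FPKM in scrambled siRNA, against 806 and 896 FPKM in control. Of the astrocyte markers limma called 1 against scrambled siRNA (2 higher at an unadjusted p under 0.05, median log2 difference 0.11) and 2 against control. Against scrambled siRNA, Aldoc, Aldh1l1 and Slc1a2 differed by -0.11, -0.04 and -0.02, and Sox9, Gja1 and Slc1a3 by 0.03, 0.18 and 0.25. Gfap, the intermediate filament gene of reactive astrocytes, had 170 and 178 FPKM in Baf53b siRNA, 45.1 and 47.3 FPKM in scrambled siRNA, against 16.9 and 18.3 FPKM in control. It rose by 1.89 in log2 against scrambled siRNA (SE 0.13, limma adjusted p = 0.0111, lost without scrambled siRNA replicate 1 or without a filter, up to 0.0863) and by 3.23 against control (adjusted p = 0.000553). Aqp4 rose by 0.80 against control (limma adjusted p = 0.0446, lost with any 1 library left out). The single markers in this paragraph, Gfap and Aqp4 among them, were named after their values were seen. The part of these cells in the Gbp levels was not tested.

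**Figure D5:**
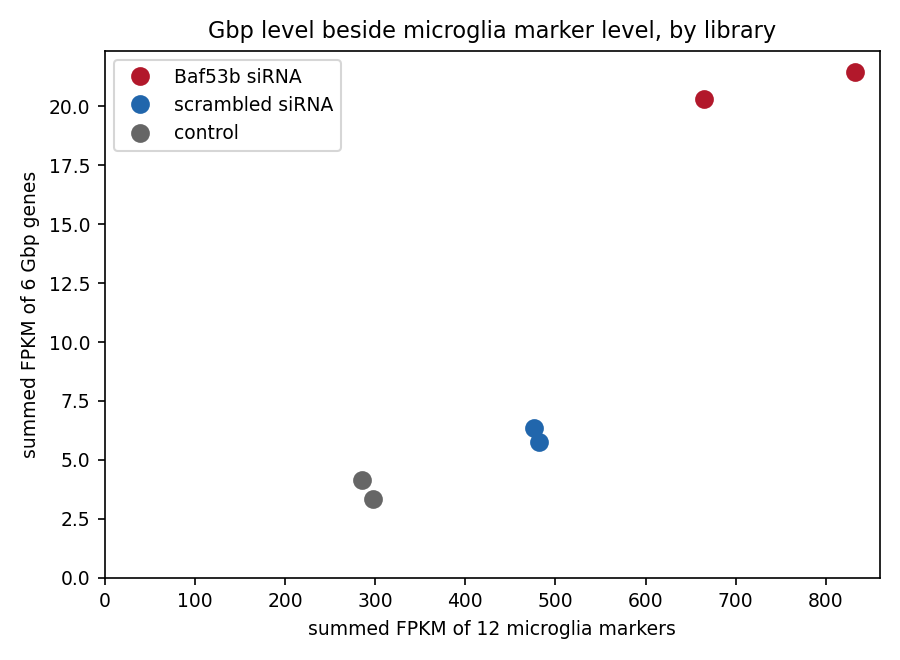
Summed FPKM of the 6 Gbp genes (y axis) against summed FPKM of 12 microglia markers (x axis); points are the 6 libraries, coloured by group. The Gbp sums are 21.4 and 20.3 FPKM in Baf53b siRNA at marker sums of 832 and 665 FPKM, against at most 6.33 FPKM at marker sums of up to 481 FPKM in the other 4 libraries.

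Over the 6 libraries, likeness to the members was measured as the root mean square difference between a gene's log2(FPKM + 1) values and the mean of the 6 members, each centred on its own mean. The members themselves lay between 0.107 (Gbp3) and 0.274 (Gbp9) from their mean. The nearest other gene was Irgm2 (0.0536), with 3.33 and 3.20 FPKM in Baf53b siRNA, 1.00 and 0.920 FPKM in scrambled siRNA, against 0.603 and 0.579 FPKM in control. It was followed by Rtp4 (0.0835), an interferon-induced receptor transporter, Cp (0.0970), the copper-carrying ferroxidase ceruloplasmin, and Serpina3n (0.115), a protease inhibitor of reactive astrocytes. Serpina3n had 55.5 and 63.2 FPKM in Baf53b siRNA, 31.7 and 28.0 FPKM in scrambled siRNA, against 22.3 and 25.2 FPKM in control. The next were the cytidine deaminase gene Apobec1 (0.129), H2-DMb1 (0.139), which helps to load class II molecules with peptide, the oncostatin M receptor gene Osmr (0.141) and the Schlafen gene Slfn2 (0.143). These genes were picked for their pattern, which is given without a test.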

How the data were processed

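For each library the authors deposited FPKM per gene with the bounds of an interval, per the file headers. The submitters' processing notes name bcl2fastq 2.19.1.403, TopHat2 2.1.1, Cufflinks 2.2.1 and build mm10; annotation release, strand setting and handling of multiply mapped reads were not stated. FPKM is relative to a library's mapped fragments, so abundant genes lower the rest. Fragments behind a gene were estimated with an interval half-width of 2 standard errors. Left out were 92 spike-in rows, 4 genes with a failed estimate and 353 short RNA genes; rows of 48 gene IDs were summed. A fit of log2(FPKM + 1) by group used limma 3.58.1 (R 4.3.3; eBayes, trend) on 14664 genes with a mean of at least 1 FPKM. Residual and prior degrees of freedom were 3 and 3.99. Tests were two-sided, with Benjamini-Hochberg adjustment over all genes at 0.05, and the fit was tested on simulated data. Exons and transcripts come from GENCODE M21, whose coordinates equal those of the 12 Gbp rows, and promoters from RefSeq. Members and lists were chosen with earlier results of these data known. Named are the members, the other Gbp genes, the 8 genes nearest in pattern and up to 5 genes per pathway list: those called against scrambled siRNA by size, then those called against control by size, then by unadjusted p. Of the interferon signalling list, 1 gene is not reported here.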

Additional observations from a re-analysis of the deposited data

Results flagged for a closer look

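The 92 rows of synthetic spike-in RNA, which enter no comparison and which the labels do not mention, summed to 4825 and 811 FPKM in Baf53b siRNA replicates 1 and 2, 207 and 656 FPKM in scrambled siRNA replicates 1 and 2, and 117 and 125 FPKM in control. All 4 siRNA libraries stood above both control libraries, and the cause was not tested.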

How the results depend on the processing

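The 6 members were chosen by their FPKM, and some of the 14 alternatives cannot change a member's difference of group means. These are the changes of filter, the fit of the compared groups alone, the replicate block and the loss of a library from a group not compared. All 252 log2 differences of the 6 members under the 14 alternatives were above 0. Their median against scrambled siRNA was 1.10, and 1.60 and 1.33 with pseudocounts of 0.1 and 0.5; for scrambled siRNA against control it was 0.27, then 0.60 and 0.41, and for Baf53b siRNA against control 1.42, then 2.17 and 1.74. With each library left out in turn these medians ranged from 1.03 to 1.19, 0.24 to 0.34 and 1.39 to 1.53. Genes called by limma against scrambled siRNA numbered 18, but 1 with a pseudocount of 0.1, 0 without a filter, 8 with a mean of at least 5 FPKM and 5 to 26 with a library left out. For Baf53b siRNA against control they numbered 181, but 42 without a filter, 71 at 5 FPKM and 39 to 135 with a library left out (39 without Baf53b siRNA replicate 1, 58 without control replicate 2). For scrambled siRNA against control they numbered 0, 1 in a fit of those groups alone and 0 to 4 with a library left out. No member averages 5 FPKM, so none was tested at that filter. A member was called against scrambled siRNA in 1 case (Gbp6), 2 under both rescalings, and 0 with a pseudocount of 0.1, no filter or a replicate block; against control 5 were called, 1 without a filter. With the replicate block, limma called 13, 0 and 188 genes. Among the named pathway genes, the block lost the calls of Iigp1 and Irgm1 against scrambled siRNA and of Pycard and Gsdmd against control. The deviations of same-numbered libraries correlated at 0.36, 0.18 and 0.39, but each comparison has 2 pairs and the labels do not say what a number shares. A group left with 1 library was assumed to vary like the others. The cause of these changes was not tested. Levels under 1 FPKM rest on few fragments.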
